A study of Mus musculus with 6 samples.

Results

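The genes described here are 10 members of the MHC class I presentation pathway and the immunoproteasome, out of 49568 gene symbols in a bulk RNA-sequencing table of mouse lung. They were chosen by name, with earlier results of these data known. H2-K1 and H2-D1 encode the classical class I heavy chains and B2m their light chain, beta-2 microglobulin. Tap1 and Tap2 form the peptide transporter, Tapbp (tapasin) links it to the heavy chain, Psmb8, Psmb9 and Psmb10 are the inducible catalytic subunits of the immunoproteasome, and Nlrc5 is the transactivator of class I genes. All 10 members were present in the table and all 10 were among the 19199 genes that passed the filter on low counts.

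Class I molecules display peptides from proteins made inside a cell to CD8+ T cells, and natural killer (NK) cells read their presence through inhibitory receptors. Peptides are cut by the proteasome, moved into the endoplasmic reticulum by the transporter and loaded on the heavy chain with the help of tapasin and other chaperones. Nearly all nucleated cells make class I molecules, and the genes respond to interferon and to TNF through NF-kB. In lung, leukocytes and endothelium are known for high levels.

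Whole lungs were taken from female mice on the C57BL/6 background at 4 months of age, and 1 poly(A) library per mouse was sequenced. The 3 TNF+ mice belonged to a TNF-Tg line that overexpresses human TNF, and the 3 TNF- mice were wildtype (WT) littermates without the transgene. The promoter of the transgene is not stated in the sources used here, and a whole lung mixes all of its cell types. Each library came from a separate mouse, so the p-values measure the spread between these 6 mice.

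Total counts per lung were between 25396923 and 32529408, and a gene with 3 counts, taken as the limit of detection, had 0.0922 to 0.118 CPM (counts scaled to library size by the TMM method). That floor covers counting error only. Mouse Tnf, which is not the human transgene itself, was higher in TNF+ mice (log2 fold change 3.62 ± 0.46, adjusted p = 0.000471). Here and below, ± after a log2 fold change is its standard error, and the adjusted p is that of edgeR's quasi-likelihood fit over all genes after Benjamini-Hochberg correction. In the lung of TNF+ replicate 1, 5.22% of counts lay on Gm42418, against 0.0774% to 0.274% in the others. The lung of TNF- replicate 1 held 1789 CPM of the squamous keratin Krt4 and 780 CPM of skeletal muscle actin Acta1, genes chosen after their values were seen, against at most 0.254 and 13.5 CPM in the other 5 lungs. Results are therefore also given without these lungs where that changed a call.

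Of the 10 members, 6 were higher in TNF+ lungs at an adjusted p under 0.05 and the remaining 4 did not pass. Among all genes tested, 24% were higher and 23.4% lower, together 47.4%. The median log2 fold change of the members was 0.71, and that of all genes was 0.03. For 9 of the 10 members the lowest TNF+ lung exceeded the highest TNF- lung, a pattern found in 30.5% of all genes tested, and in 58.7% the groups did not overlap in either direction. By role, the heavy chains, the light chain and the inducible proteasome subunits were higher, and the transporter, tapasin and the transactivator did not pass the threshold. In whole lung, more cells of a type and more RNA per cell cannot be told apart.

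**Figure D1:**
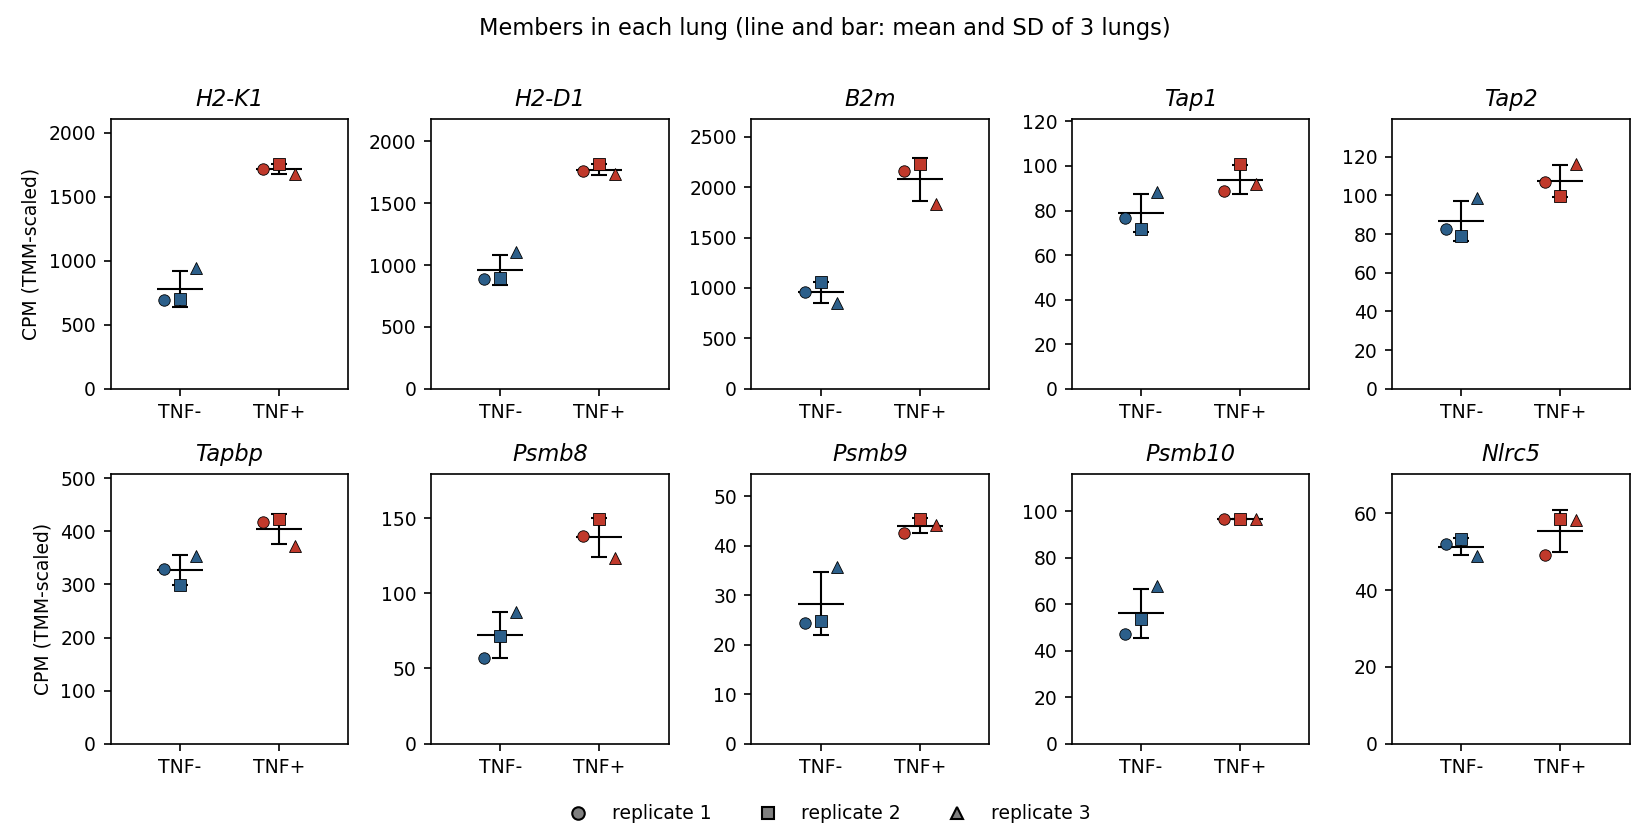
Level of each member (TMM-scaled CPM, linear axes from 0) in the 3 TNF- and 3 TNF+ lungs, with symbols for replicates and a line and bar for the mean and SD. The groups are apart for 9 members and overlap for Nlrc5, and replicate 3 is the highest TNF- lung for 8 of the 10.

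The 3 genes of the class I molecule itself are taken first, with the sequence before their start sites, since these 3 genes had the highest levels of the members and are known for shared promoter elements. The windows come from RefSeq (GRCm38.p6) and run from 250 bases before the start to the start, on the strand of the gene. Capitals mark matches to searched motifs, namely a core of the interferon-stimulated response element (GAAANNGAA), an interferon-gamma activated site (TTCNNNGAA), 2 forms of the NF-kB site (GGGNNTTCC and GGNNTTTCC), the X2 box core (TGACG) and the Y box core (CCAAT), each searched on both strands. H2-K1 has 2 RefSeq starts, and the window of the start that GENCODE M21 also gives is shown (chr17:34000348-34000597, minus strand). The window of B2m is chr2:122147437-122147686, plus strand.
H2-K1: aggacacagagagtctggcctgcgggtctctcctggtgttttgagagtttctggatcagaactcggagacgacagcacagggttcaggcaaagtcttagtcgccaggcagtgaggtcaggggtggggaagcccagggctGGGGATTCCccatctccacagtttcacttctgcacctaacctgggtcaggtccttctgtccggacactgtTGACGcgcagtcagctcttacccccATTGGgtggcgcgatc
B2m: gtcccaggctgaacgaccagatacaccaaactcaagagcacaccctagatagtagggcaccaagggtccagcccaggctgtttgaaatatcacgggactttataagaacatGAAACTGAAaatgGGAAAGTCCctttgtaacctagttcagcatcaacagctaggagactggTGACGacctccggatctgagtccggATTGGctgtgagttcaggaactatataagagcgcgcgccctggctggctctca

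In H2-K1 the capitals are an NF-kB form beginning 111 bases before the start, an X2 core at 41 bases and a Y core, read on the opposite strand as ATTGG, at 16 bases. In B2m they are an interferon-stimulated core at 139 bases, an NF-kB form on the opposite strand at 126 bases, an X2 core at 78 bases and a Y core at 53 bases. The H2-D1 window, of which a longer GENCODE transcript covers the bases, also held the NF-kB form and the X2 core, 171 and 101 bases before its RefSeq start. Laid on each other at the NF-kB form, the H2-K1 and H2-D1 windows were identical at 166 of 190 bases (87.4%). All 3 genes had the X2 core and the Y core in the same order with their first bases 25 bases apart, a spacing noticed after the windows were read. That stretch is printed for the 3 genes so that the letters between the boxes can be compared (H2-K1 chr17:34000359-34000388, minus strand; H2-D1 chr17:35262993-35263022, plus strand; B2m chr2:122147609-122147638, plus strand).
H2-K1 stretch: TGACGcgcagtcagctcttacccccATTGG
H2-D1 stretch: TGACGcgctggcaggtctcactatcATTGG
B2m stretch: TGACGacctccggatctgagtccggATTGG

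Of the 30 bases, 23 were identical between H2-K1 and H2-D1, 13 between H2-K1 and B2m and 12 between H2-D1 and B2m. These values include the bases of both boxes, which are identical by the choice of the stretch. The pair at this spacing occurred in 31 of 32851 RefSeq promoter windows of 300 bases (0.0944%). The windows of H2-K1, H2-D1 and B2m, from which the spacing was taken, are counted among the 31. Taken singly the motifs were common, with TGACG in 20.8%, CCAAT in 37.4%, GAAANNGAA in 8.56%, TTCNNNGAA in 8.3% and each NF-kB form in 5.82% of windows. Windows were matched for 8 of the 10 members, all but Tap2 and Nlrc5. Psmb9 and Tap1 start 226 bases apart on opposite strands. The interval between them held a TGACG 86 bases before Tap1 and a CCAAT 222 bases before it. The interferon-gamma activated site was found 97 bases before the start of Psmb8, CCAAT was found in the window of Tapbp, and none of the searched letters were in that of Psmb10.  A match is a match of letters and no measure of binding, and the lack of a match does not show that a site is absent.

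H2-K1 (ENSMUSG00000061232.16, chromosome 17, 33996017 to 34000347, minus strand of GRCm38) stood at 1715, 1758 and 1675 CPM in TNF+ replicates 1, 2 and 3, and at 691, 704.5 and 940 CPM in the TNF- lungs. The TNF+ lungs lay close together and far above all TNF- lungs, of which replicate 3 was the highest. The log2 fold change was 1.14 ± 0.16 (adjusted p = 0.000719). That is 1716 ± 41.9 CPM (SD, n = 3) in TNF+ lungs against 779 ± 140 in TNF- lungs, a ratio of 2.2.

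H2-D1 (ENSMUSG00000073411.11, chromosome 17, 35262730 to 35267499, plus strand), the second classical heavy chain of this strain, had 1761, 1820 and 1737 CPM in TNF+ lungs and 886, 896 and 1104 CPM in TNF- lungs. Its pattern over the lungs was that of H2-K1, with TNF- replicate 3 again the highest control. H2-D1 thus had a log2 fold change of 0.88 ± 0.14 (adjusted p = 0.00147). Within each lung, H2-K1 stood lower relative to H2-D1 in TNF- mice (log2 ratio -0.36, -0.35 and -0.23) than in TNF+ mice (-0.04, -0.05 and -0.05), a difference of 0.27 in a ratio chosen after the values were seen (exact two-sided permutation p = 0.1, the smallest that 3 lungs against 3 can give). Of the 100-base windows of their transcripts, 0.957% for H2-K1 and 3.59% for H2-D1 also occurred at another locus, mainly other class I genes.

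B2m (ENSMUSG00000060802.8, chromosome 2, 122147686 to 122153083, plus strand) had 2164, 2233 and 1836 CPM in TNF+ lungs and 962, 1059 and 854 CPM in TNF- lungs. Here the replicate 3 lungs were the lowest of both groups, and the groups were far apart. The log2 fold change was 1.12 ± 0.15 (adjusted p = 0.000653), which left the ratio of H2-K1 to B2m with overlapping groups and a difference of 0.04 on the log2 scale (exact two-sided permutation p = 1). In each leave-one-out fit all 3 genes were called, with log2 fold changes of 1.04 to 1.29 for H2-K1, 0.8 to 0.99 for H2-D1 and 1.03 to 1.19 for B2m.

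The transporter and tapasin differed less. Tap1 (ENSMUSG00000037321.17, chromosome 17, 34187553 to 34197225, plus strand), which with Tap2 pumps peptides into the endoplasmic reticulum, stood at 89.0, 101 and 91.8 CPM in TNF+ lungs and 76.6, 71.8 and 88.3 CPM in TNF- lungs. The lowest TNF+ lung lay only just above the highest TNF- lung, replicate 3. Its log2 fold change was 0.25 ± 0.11 (adjusted p = 0.0888).

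Tap2 (ENSMUSG00000024339.12, chromosome 17, 34203527 to 34216321, plus strand) had 107, 99.8 and 116 CPM in TNF+ lungs against 82.8, 78.8 and 98.7 CPM in TNF- lungs, and again TNF- replicate 3 came close to the TNF+ lungs (log2 fold change 0.31 ± 0.12, adjusted p = 0.0555). Tapbp (ENSMUSG00000024308.15, chromosome 17, 33915899 to 33929292, plus strand), which holds empty class I molecules at the transporter, had 417, 424 and 372 CPM in TNF+ lungs and 329, 299 and 355 CPM in TNF- lungs. The groups of Tapbp did not overlap, but its TNF+ replicate 3 and TNF- replicate 3 were close (log2 fold change 0.30 ± 0.12, adjusted p = 0.06).

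None of these 3 genes passed with edgeR at the adjusted threshold, while all 3 had an unadjusted p under 0.05. DESeq2 and limma-voom each called 1 of the 3, Tapbp (log2 fold changes 0.28 and 0.31, adjusted p = 0.0359 and 0.0464), where 23.3% and 23.9% of all genes were higher. Without TNF- replicate 3 all 3 were called, with log2 fold changes of 0.34 for Tap1, 0.41 for Tap2 and 0.36 for Tapbp (adjusted p = 0.0237, 0.0162 and 0.0383), and 9 members were called in place of 6, while 23.3% of all genes were then higher. T cell and B cell markers were also high in that lung. All 7 T cell markers and all 6 B cell markers had their highest TNF- value there, with summed levels of 105 CPM against 55.0 and 73.4 CPM for T cells and 205 CPM against 114 and 141 CPM for B cells, while 4 of 8 markers of macrophages and monocytes were highest there. The summed NK cell markers were lowest in that lung (33.1 CPM against 39.1 and 49.3 CPM). Replicate 3 was the highest TNF- lung for 38.9% of all genes tested. The part of these cells in the members' values was not tested.

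The inducible proteasome subunits were higher in TNF+ lungs. Psmb8 (ENSMUSG00000024338.15, chromosome 17, 34197721 to 34201454, plus strand), the chymotrypsin-like subunit LMP7, had 138, 150 and 124 CPM in TNF+ lungs and 57.0, 71.8 and 87.6 CPM in TNF- lungs. Every TNF+ lung was above every TNF- lung, and the TNF- lungs were spread more widely than the TNF+ lungs. Psmb8 had a log2 fold change of 0.93 ± 0.16 (adjusted p = 0.00204).

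Psmb9 (ENSMUSG00000096727.3, chromosome 17, 34181987 to 34187764, minus strand), the subunit LMP2, stood at 42.5, 45.4 and 44.1 CPM in TNF+ lungs and at 24.3, 24.8 and 35.7 CPM in TNF- lungs. Replicate 3 was the high TNF- lung here too. The log2 fold change was 0.64 ± 0.15 (adjusted p = 0.0102), and Psmb9 lost its call without TNF+ replicate 1 and TNF- replicate 1 together (0.52, adjusted p = 0.0743), when 5 members were called and 13.8% of all genes were higher.

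Psmb10 (ENSMUSG00000031897.9, chromosome 8, 105935735 to 105938444, minus strand), the subunit MECL-1, had 96.5, 96.7 and 96.4 CPM in TNF+ lungs, almost the same value in each, and 47.1, 53.4 and 67.6 CPM in TNF- lungs. No TNF- lung reached the TNF+ level. This gave a log2 fold change of 0.78 ± 0.13 (adjusted p = 0.00193). In the leave-one-out fits the 3 subunits had log2 fold changes of 0.76 to 1.08 for Psmb8, 0.51 to 0.83 for Psmb9 and 0.65 to 0.94 for Psmb10 and were called each time.

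Nlrc5 (ENSMUSG00000074151.13, chromosome 8, 94434356 to 94527272, plus strand), the regulator that acts at class I promoters, had 49.3, 58.6 and 58.4 CPM in TNF+ lungs and 52.0, 53.2 and 48.9 CPM in TNF- lungs. The groups overlapped, with TNF+ replicate 1 among the TNF- lungs. The log2 fold change was 0.11 ± 0.10 (adjusted p = 0.388), and it stayed between 0.06 and 0.15 with each lung left out.

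Several members share exon bases with other genes, and the setting of the read counting for strand is not given in the sources used here. Tap1 and Psmb9 overlap by 212 exon bases on opposite strands. Psmb8 and Tap2 overlap the antisense gene Gm20496 by 498 and 165 bases, and Tap2 also overlaps Gm15821 by 533 bases. Tapbp shares 149 bases with Zbtb22 on its own strand and 904 with Gm19412 on the other, and Nlrc5 shares 78 with 9330175E14Rik. Although Psmb9 and Tap1 are neighbours, Psmb9 stood higher relative to Tap1 in every TNF+ lung than in any TNF- lung (log2 ratio -1.07, -1.15 and -1.06 against -1.65, -1.53 and -1.31), a difference of 0.40 for a pair chosen after the values were seen (exact two-sided permutation p = 0.1).

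**Figure D2:**
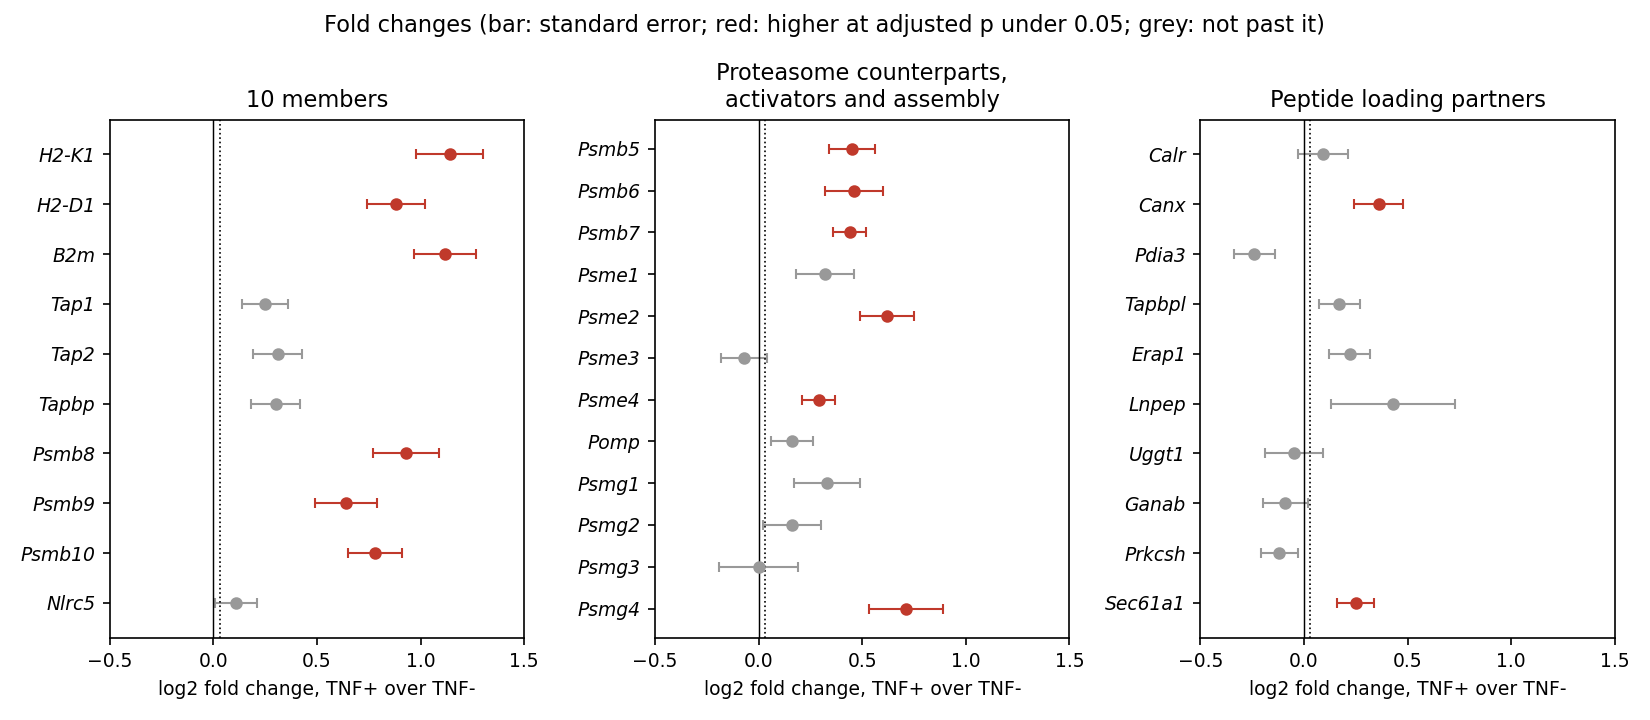
Log2 fold change of TNF+ over TNF- lungs with its standard error for the 10 members, the tested genes of the proteasome list and the peptide loading partners, where red marks genes higher at an adjusted p under 0.05, grey the others and the dotted line the median of all genes (0.03). Class I chains and inducible subunits lie between 0.64 and 1.14, and transporter, tapasin and Nlrc5 between 0.11 and 0.31.

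Levels between genes were compared per kilobase of merged exons. B2m was the highest member at 2416 ± 247 CPM per kb in TNF+ lungs and 1114 ± 120 in TNF- lungs (SD, n = 3). It was followed by H2-D1 with 687 ± 16.6 and 373 ± 47.7 and by H2-K1 with 584 ± 14.3 and 265 ± 47.6. Tapbp came next with 111 ± 7.88 and 90.2 ± 7.67 CPM per kb.

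The proteasome subunits and the transporter had lower levels per kb than the class I chains and tapasin. Psmb10 had 56.6 ± 0.0873 CPM per kb in TNF+ and 32.9 ± 6.16 in TNF- lungs, Psmb8 had 40.6 ± 3.85 and 21.3 ± 4.52, and Tap2 had 28.5 ± 2.2 and 22.9 ± 2.79. Tap1 with 17.2 ± 1.15 and 14.4 ± 1.56, Psmb9 with 12.0 ± 0.409 and 7.73 ± 1.76 and Nlrc5 with 6.53 ± 0.63 and 6.05 ± 0.265 were the lowest. Tap2 and Psmb8 changed places between the groups, and in TNF- lungs their values overlapped, while all other neighbours in the order were apart in each group. Over the principal transcript instead, H2-K1 (1060 and 481) lay above H2-D1 (843 and 458) and Psmb8 (84.3 and 44.3) above Psmb10 (73.7 and 42.7), and Tap1, Tap2 and Psmb9 lay between 31.3 and 32.5 CPM per kb in TNF+ lungs. Only the places of B2m, Tapbp and Nlrc5 were the same with both lengths and in both groups.

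Each inducible catalytic subunit takes the place of a constitutive one, Psmb8 that of Psmb5, Psmb9 that of Psmb6 and Psmb10 that of Psmb7. The constitutive subunits were also higher in TNF+ lungs. Psmb5 stood at 46.2, 49.3 and 45.1 CPM against 33.3, 31.0 and 38.4 CPM (log2 fold change 0.45 ± 0.11, adjusted p = 0.00865), and Psmb7 at 50.3, 54.6 and 52.4 CPM against 38.9, 37.3 and 40.1 CPM (0.44 ± 0.08, adjusted p = 0.00365). Psmb6 had 107, 123 and 92.1 CPM against 67.8, 82.7 and 84.0 CPM (0.46 ± 0.14, adjusted p = 0.0237). The call of Psmb6 was lost without TNF+ replicate 1 (0.42, adjusted p = 0.0746), TNF+ replicate 2 (0.35, adjusted p = 0.08) or TNF- replicate 1 (0.34, adjusted p = 0.0844). Without both replicate 1 lungs all 3 lost their calls, Psmb5 with 0.41, Psmb6 with 0.33 and Psmb7 with 0.43 (adjusted p = 0.0973, 0.185 and 0.053).

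Within a lung, the log2 ratio of Psmb8 to Psmb5 was 1.58, 1.60 and 1.45 in TNF+ mice and 0.78, 1.21 and 1.19 in TNF- mice. All TNF+ lungs were above the TNF- lungs, and TNF- replicate 1 was the lowest. The difference was 0.49 (exact two-sided permutation p = 0.1, the smallest possible). For Psmb10 to Psmb7 it was 0.94, 0.82 and 0.88 against 0.28, 0.52 and 0.75, a difference of 0.37 with no overlap (exact permutation p = 0.1).

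For Psmb9 to Psmb6 the ratios were -1.34, -1.43 and -1.06 against -1.48, -1.74 and -1.23, and the groups overlapped (difference 0.20, exact permutation p = 0.4). That difference was 0.08 without TNF- replicate 2, 0.10 without TNF+ replicate 3 and 0.33 without TNF- replicate 3. The test of the 3 ratios cannot reach 0.05 with 3 lungs against 3, and no adjustment over the 3 changes that. Psmb5 shares 21.1% of its 100-base windows with Gm3375, so its counts could be split, and Psmb6 and Psmb7 share none.

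**Figure D3:**
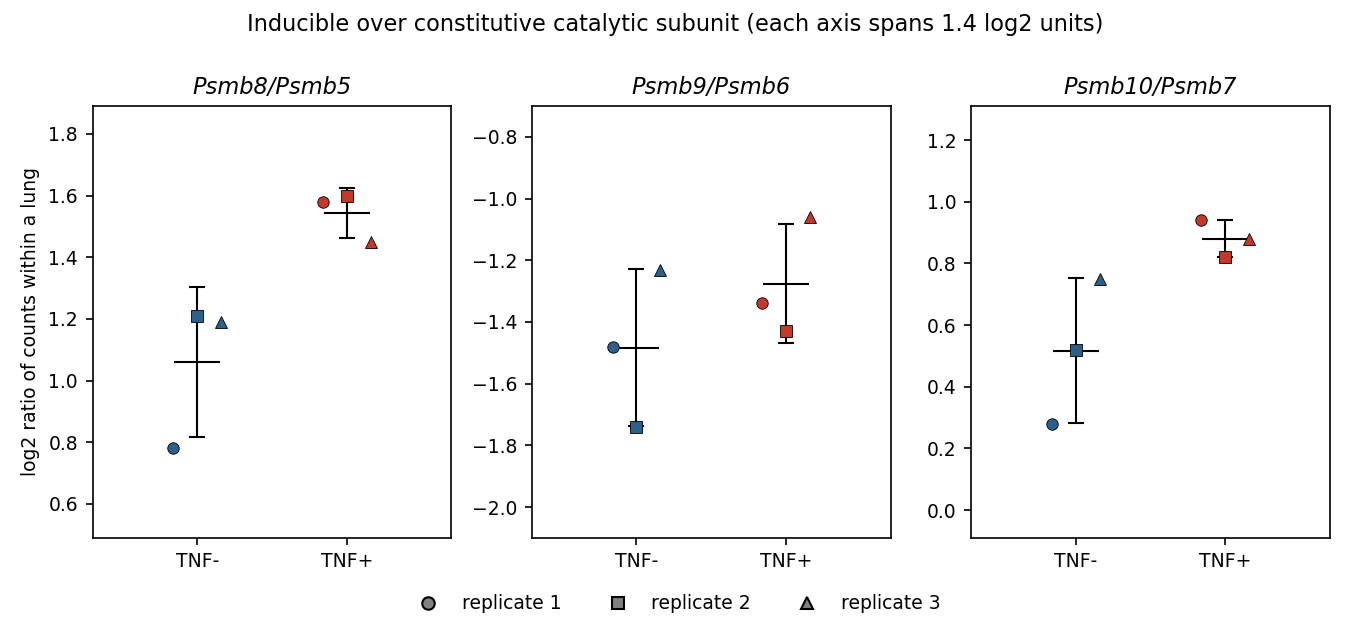
Log2 ratio of the counts of each inducible subunit to its constitutive counterpart in each lung (axes of equal span, line and bar for mean and SD of 3 lungs). The groups are apart for Psmb8/Psmb5 and Psmb10/Psmb7 and overlap for Psmb9/Psmb6.

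In the list of proteasome counterparts, activators and assembly factors, 6 of 12 genes tested were higher in TNF+ lungs, the other 6 did not pass, and the median log2 fold change was 0.33. Over all genes tested 24% were higher and 23.4% lower. Of the cap that opens the proteasome, Psme2 rose (log2 fold change 0.62 ± 0.13, adjusted p = 0.00492) and its partner Psme1 had 195, 198 and 156 CPM against 124, 154 and 163 CPM (0.32, adjusted p = 0.0975). Psme2 shares 18.4% of its windows with Psme2b. Of the alternative caps, Psme3 had a log2 fold change of -0.07 (adjusted p = 0.632) and Psme4 rose (0.29, adjusted p = 0.0171). The call of Psme4 was lost without TNF+ replicate 1 (0.25, adjusted p = 0.0791), TNF- replicate 1 (0.28, adjusted p = 0.0571) or TNF- replicate 2 (0.28, adjusted p = 0.059), without the filter on low counts (0.28, adjusted p = 0.0623), on total counts (0.27, adjusted p = 0.112) and without both replicate 1 lungs (0.27, adjusted p = 0.182). Of the assembly factors, Psmg4 rose (0.71 ± 0.18, adjusted p = 0.0131), a call lost without TNF+ replicate 2 (0.62, adjusted p = 0.0501) and without both replicate 1 lungs (adjusted p = 0.067), while Pomp had a log2 fold change of 0.16, Psmg1 of 0.33, Psmg2 of 0.16 and Psmg3 of -0.00, none past the threshold. With a lung left out, none of the genes of this list that had not passed was called, but the size of their differences moved, that of Psme1 to 0.18 and that of Pomp to 0.07 without TNF- replicate 1 and that of Psmg2 to 0.09 without TNF- replicate 2, while Psme3 (-0.13 to 0.01) and Psmg3 (-0.09 to 0.11) changed sign. Psmb11, the thymus subunit, had at most 2 counts in a lung and was not tested. Without both replicate 1 lungs, 1 gene of this list was called.

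Leukocyte markers were higher in TNF+ lungs as well. Over 6 markers of all leukocytes (Ptprc, Cd53, Laptm5, Coro1a, Cd52 and Cytip) the summed level was 2200 to 2596 CPM in TNF+ and 805 to 1034 CPM in TNF- lungs, 5 of the 6 were called higher and the median log2 fold change was 1.38. Ptprc, which encodes the common leukocyte antigen CD45, had a log2 fold change of 1.43 ± 0.13 (adjusted p = 8.13e-05). All 8 markers of macrophages and monocytes were higher (median 2.65, summed level 10530 to 11640 against 2923 to 2978 CPM). So were 5 of 7 markers of T cells and 3 of 6 of B cells. Of 6 dendritic cell markers 2 were higher and 1 was lower. Among all genes tested 24% were higher and 23.4% lower. Of the markers of other lung cells, 6 of 7 for endothelium were lower and 1 higher (1473 to 1715 against 2807 to 3362 CPM), 5 of 8 for alveolar epithelium were lower (15370 to 19960 against 23110 to 27840 CPM) and 4 of 6 for fibroblasts were lower (827 to 870 against 1168 to 1831 CPM). No marker of any list had 0 counts in every lung. The part of these cell types in the members' values was not tested.

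Relative to the summed leukocyte markers of the same lung, every member was lower in TNF+ lungs on average. The log2 difference was -0.25 for H2-K1, -0.28 for B2m, -0.51 for H2-D1, -0.45 for Psmb8, -0.60 for Psmb10 and -0.74 for Psmb9. It was -1.08 for Tap2, -1.09 for Tapbp, -1.15 for Tap1 and -1.29 for Nlrc5. The groups overlapped for B2m (-0.26, -0.15 and -0.26 against 0.26, 0.20 and -0.28, exact two-sided permutation p = 0.4), where the difference was -0.18 without TNF- replicate 1 and -0.45 without TNF- replicate 3, and for H2-K1 they met at -0.39 when rounded. For the 9 members other than B2m the exact permutation p was 0.1, the smallest possible. The marker sum itself was higher in TNF+ lungs without overlap (2200 to 2596 against 805 to 1034 CPM). A member that rose less than this sum, or did not change, therefore comes out lower in this ratio. A marker sum is set by its largest genes, here Laptm5, and is not a count of cells.

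**Figure D4:**
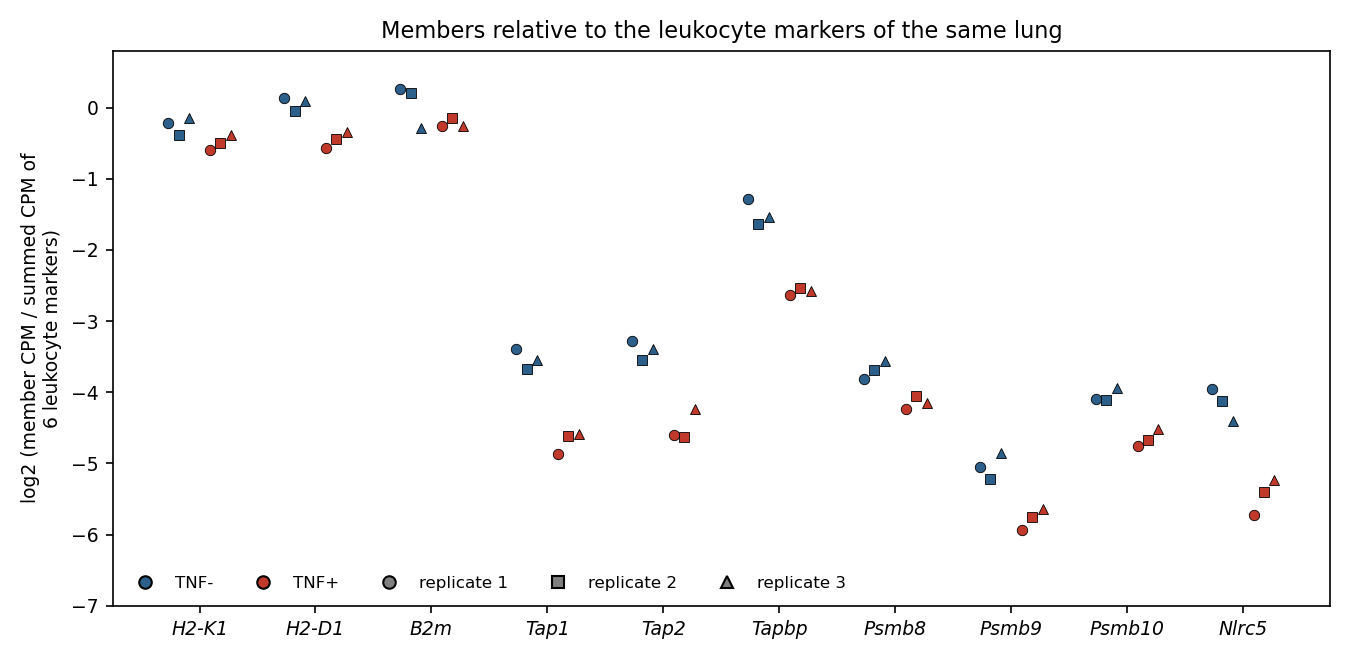
Log2 of each member's CPM over the summed CPM of 6 leukocyte markers of the same lung, for 3 TNF- and 3 TNF+ lungs. The differences run from -0.25 for H2-K1 to -1.29 for Nlrc5, and the groups overlap for B2m.

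Other class I genes did not all follow the classical ones. In the list of class Ib and class I-like genes, 22 of 33 could be tested, of which 10 were higher and 3 lower in TNF+ lungs (against 24% higher and 23.4% lower over all genes, median log2 fold change 0.35), and 3 had 0 counts in every lung. The balance depended on the lungs and the scaling, with 4 higher and 5 lower without TNF+ replicate 2 and 4 higher and 3 lower on total counts. The number called was 13 and fell to 8 without TNF+ replicate 1 or without TNF- replicate 2 and to 7 without both replicate 1 lungs. H2-M2 had the largest fold change in the list, with 129, 207 and 103 CPM in TNF+ lungs against 1.30, 0.571 and 2.03 CPM in TNF- lungs. These were 41, 18 and 69 counts in TNF- lungs against 2951, 6050 and 3281 in TNF+ lungs, with no overlap (log2 fold change 6.80 ± 0.46, adjusted p = 2.15e-05), and none of its windows occur elsewhere.

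H2-M3, which presents formylated peptides, rose from 9.39, 12.7 and 13.6 CPM in TNF- lungs to 24.5, 28.5 and 28.7 CPM in TNF+ mice (log2 fold change 1.19 ± 0.16, adjusted p = 0.000593). H2-T-ps (1.18, adjusted p = 0.00123) and H2-Q4 (0.65, adjusted p = 0.00624) also rose. Lower in TNF+ lungs were H2-T24 (-0.97 ± 0.15, adjusted p = 0.00109), Gm8909 (-0.80, adjusted p = 0.00105) and Mr1 (-0.44, adjusted p = 0.023), which presents vitamin metabolites to mucosal-associated T cells. H2-T24 had 11.2, 14.3 and 12.1 CPM against 27.8, 24.7 and 21.2 CPM, so no TNF+ lung reached the TNF- lungs. The call of Mr1 was lost without TNF+ replicate 1 (-0.45, adjusted p = 0.0613), TNF+ replicate 3 (-0.39, adjusted p = 0.0717), TNF- replicate 2 (-0.46, adjusted p = 0.0549) or TNF- replicate 3 (-0.36, adjusted p = 0.0527), and without both replicate 1 lungs (-0.52, adjusted p = 0.0533).

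**Figure D5:**
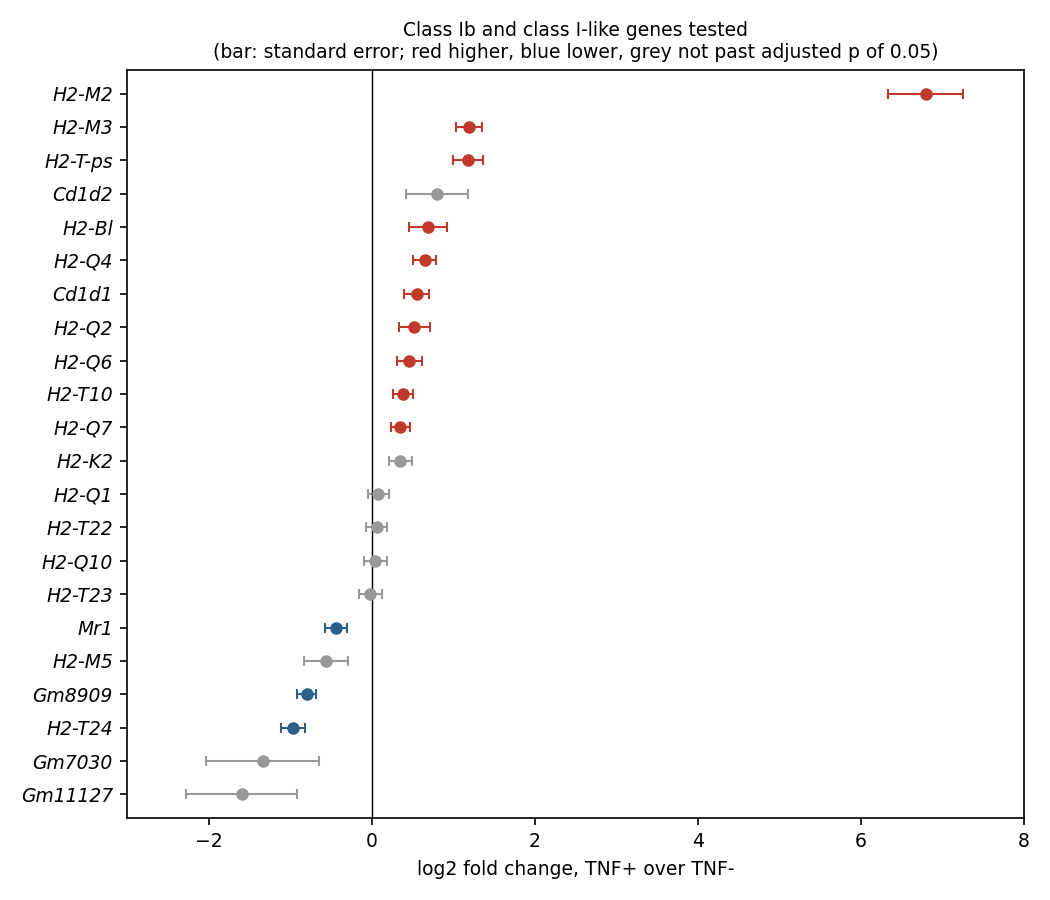
Log2 fold change with standard error of the 22 class Ib and class I-like genes tested, ordered by size (red higher, blue lower, grey not past an adjusted p of 0.05). H2-M2 at 6.80 stands apart, and H2-T24, Gm8909 and Mr1 are lower.

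Of 10 tested partners in peptide loading, 2 (20%) were higher, against 24% of all genes, namely the chaperone Canx (log2 fold change 0.36 ± 0.12, adjusted p = 0.0362) and the translocon gene Sec61a1 (0.25 ± 0.09, adjusted p = 0.0438), and the median was 0.13. The count fell to at most 1 with any lung left out, Sec61a1 being lost each time (0.20 to 0.26) and Canx without TNF+ replicate 1 (0.24, adjusted p = 0.18), TNF+ replicate 3 (0.36, adjusted p = 0.0685), TNF- replicate 1 (0.38, adjusted p = 0.0658), TNF- replicate 2 (0.37, adjusted p = 0.0896) or TNF- replicate 3 (0.29, adjusted p = 0.0896). Both calls were lost on total counts, without the filter on low counts and without both replicate 1 lungs.

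Of 25 tested regulators of class I genes, 10 were higher and 1 was lower (median log2 fold change 0.21). Over all genes tested 24% were higher and 23.4% lower. The interferon-gamma receptor chains rose, Ifngr2 from 30.9, 30.4 and 33.9 CPM to 99.3, 78.4 and 100.4 CPM (1.55, adjusted p = 3.74e-05) and Ifngr1 by 1.21 on the log2 scale (adjusted p = 9.33e-05). Their kinase Jak2 (1.10, adjusted p = 6.37e-05) and the factor Irf8 (1.06, adjusted p = 8.14e-05) rose as well, and so did the NF-kB subunit gene Nfkb1, which had 151, 154 and 173 CPM against 98.4, 104 and 93.1 CPM (0.70, adjusted p = 0.000826). Rela, its partner, had a log2 fold change of 0.17 (adjusted p = 0.185), and of 0.10 without TNF- replicate 1.

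Irf9, a factor of the interferon response, was lower (log2 fold change -0.51, adjusted p = 0.0037). Irf1, a direct activator of class I and immunoproteasome genes, had 82.4, 102.5 and 113 CPM against 91.3, 93.9 and 96.8 CPM (0.08, adjusted p = 0.632), with the TNF+ lungs on both sides of the TNF- lungs. Ciita, the class II counterpart of Nlrc5, had a log2 fold change of 0.11 (adjusted p = 0.612). With a lung left out, both Irf1 (-0.04 to 0.16) and Ciita (-0.02 to 0.27) changed sign. Ifng had 17, 8 and 22 counts in TNF+ lungs and 6, 7 and 9 in TNF- lungs and fell under the filter, so it was not tested.

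Among 15 tested receptors listed as reading class I molecules, 5 were higher and 4 lower (against 24% higher and 23.4% lower over all genes, median 0.16). The co-receptor chains Cd8a and Cd8b1 rose, Cd8b1 from 5.25, 6.56 and 7.88 CPM to 12.2, 12.2 and 11.8 CPM (log2 fold change 0.88, adjusted p = 0.00361) and Cd8a by 0.86 (adjusted p = 0.00621). The myeloid inhibitory receptor Pirb stood at 345, 382 and 316 CPM against 29.4, 37.9 and 39.7 CPM (3.28 ± 0.15, adjusted p = 4.99e-06). Lilrb4a (3.69, adjusted p = 6.14e-06) and Lag3 (2.24, adjusted p = 0.000178) were in the list as well. Lag3 is known as a receptor for class II, and a place in the list does not show that Lilrb4a binds class I. Pirb shares 20.8% of its windows with other loci.

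The 4 lower genes were Ly49 receptors of NK cells, Klra4 (-2.96, adjusted p = 0.00074), Klra8 (-2.32, adjusted p = 0.00218), Klra9 (-2.04, adjusted p = 0.00223) and Klra7 (-1.30, adjusted p = 0.0274). Their levels were low, with 5, 3 and 5 counts of Klra4 in TNF+ lungs and 40, 50 and 30 in TNF- lungs. Each of the 4 had a TNF+ lung under 10 counts and passed the filter on low counts through the TNF- lungs, since the TNF+ lungs by themselves would not have met it, so their calls are given as a description. With at least 10 counts asked in every lung none of the 4 was tested, and the list had 5 higher and 0 lower of 9 genes. The call of Klra7 was lost without TNF+ replicate 1 (-1.09, adjusted p = 0.079), TNF+ replicate 2 (-1.23, adjusted p = 0.0865), TNF- replicate 1 (-1.25, adjusted p = 0.0741) or TNF- replicate 2 (-1.19, adjusted p = 0.0863), and without both replicate 1 lungs (-1.03, adjusted p = 0.16). Of 6 NK cell markers 4 were lower and 1 higher in TNF+ lungs, against 23.4% lower and 24% higher over all genes tested. Among the 4, Klre1 (2, 8 and 16 counts against 58, 80 and 35) likewise passed the filter through the TNF- lungs. The 6 markers had a summed level of 14.5 to 15.7 against 33.1 to 49.3 CPM and none at 0, and their part in the receptor values was not tested.

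The genes whose profile over the 6 lungs lay nearest to the mean profile of the members were sought among 14989 genes by the root mean square difference of centred log2 CPM. They were Atp6v1d (0.0241), Necap2 (0.0339), Rps23-ps2 (0.04), the class II peptide editor H2-DMa (0.0436) and Mmp19 (0.044). Their log2 fold changes were between 0.65 and 0.70. They were chosen for a profile like that of the members over the same 6 lungs. These fold changes and the order of the lungs therefore follow from that choice. Atp6v1d, a subunit of the vacuolar proton pump, had 49.9, 49.8 and 48.2 CPM in TNF+ lungs and 28.8, 29.8 and 35.7 CPM in TNF- lungs, with replicate 3 the highest TNF- lung as for 8 members.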

How the data were processed

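The authors isolated poly(A) RNA of 6 lungs, built stranded libraries and deposited unnormalized counts of reads for each gene symbol and lung. The submitters' processing notes name Trimmomatic 0.36, STAR 2.5.2b, featureCounts and GRCm38.p5, while the methods give another Trimmomatic release and mm10. The strand setting and annotation of the counting are not given in the sources used here. Total counts per lung were 25396923 to 32529408.

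The counts were filtered with filterByExpr, scaled by TMM and fitted in edgeR 4.0.16 (R 4.3.3) with a term for genotype alone. Quasi-likelihood p-values were corrected after Benjamini-Hochberg over all 19199 genes, with a threshold of 0.05. The standard error is the log2 fold change over the square root of F. Ratios used exact two-sided permutation tests (scipy 1.17.1) on log2 values. Alternatives were DESeq2 1.42.0, limma-voom (limma 3.58.1), other scalings and filters, a replicate block, each lung left out and a minimum log2 fold change of 1. The scripts were tested on simulated data. Coordinates are GENCODE M21 (GRCm38). Shared sequence is the share of 100-base transcript windows found at another locus.

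The members and lists were chosen with earlier results of these data known. Named are all members and proteasome genes, Irf1, Ifng, Ciita, Nfkb1, Rela, Cd8a, Cd8b1, Ptprc and Tnf, up to 4 genes per direction with the smallest adjusted p of each other pathway list, and the 5 genes of nearest profile (mean log2 CPM 1 or more). Values of 1 further gene of the rule are not reported here.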

Additional observations from a re-analysis of the deposited data

How the results depend on the processing

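None of the 6 members called by edgeR lost its call with a lung left out (6 to 9 members called, 7347 to 9164 of all genes). When an absolute log2 fold change of 1 or more was also asked, 4320 genes were left, of which 2 were members, 3 class Ib genes, 6 regulators, 7 receptors (of 9 calls) and 0 each of the loading partners and the proteasome list. Class Ib calls numbered 7 on total counts, 7 without both replicate 1 lungs and 8 to 14 with a lung left out. Loading partner calls (2, with 3 at an unadjusted p under 0.05) were 1 with DESeq2's size factors and 0 to 1 with a lung left out. They were 0 on total counts, without the filter, with the replicate block and without both replicate 1 lungs. DESeq2 called 3, of which 2 were higher and 1 lower, and limma-voom called 2, both higher. Proteasome list calls fell to 1 without both replicate 1 lungs, and receptor calls to 5 (all higher, the 4 lower ones not being tested) with at least 10 counts in every lung. Direction turned, close to 0, for Psmg3 with limma-voom (0.00) and with the replicate block (0.00), and with a lung left out for Psme3 (-0.13 to 0.01), Psmg3 (-0.09 to 0.11), Irf1 (-0.04 to 0.16) and Ciita (-0.02 to 0.27). Deviations of same-numbered mice had r of -0.15, 0 and -0.24, and those of differently numbered mice -0.06 to 0.21. With 3 lungs per group these values cannot show whether the numbers pair the mice, and the labels do not say. The replicate block left 7686 genes and 6 members and ended the calls of Psme4, Canx, Sec61a1 and Klra7. The cause of these changes was not tested.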

Other observations

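In the class Ib list, Gm11127 and Gm7030, chosen after their values were seen, differed among the TNF+ lungs. Gm11127 (chromosome 17, 36055816 to 36058371, minus strand) had 2.66, 17.8 and 2.44 CPM in TNF+ replicates 1, 2 and 3 and 21.6, 22.7 and 25.2 CPM in the TNF- lungs. Gm7030 (chromosome 17, 36109719 to 36129425, minus strand) had 3.36, 25.3 and 3.65 CPM against 25.3, 25.8 and 30.9 CPM. In both, TNF+ replicate 2 was at or near the TNF- level and the other TNF+ lungs were far lower. The highest TNF+ lung was 7.32 and 7.54 times the lowest, against 1.17 and 1.22 times within TNF- lungs, and the next largest ratio within TNF+ lungs among the tested pathway genes with at least 5 CPM in any lung was 2.02, for H2-M2. Below that level some ratios were larger than 2.02, as for Cd160 with 0.611, 0.137 and 0.999 CPM in TNF+ lungs. Neither gene passed the threshold (log2 fold changes -1.60 and -1.34, standard errors 0.68 and 0.69, adjusted p = 0.0854 and 0.145 with edgeR). They are not independent measurements, since 42.7% and 44.6% of their 100-base windows occur elsewhere, 27.7% and 42.4% in each other.

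Within the TNF+ group, replicate 2 was the highest lung for 9 of the 10 members, all but Tap2, and for 35.3% of all genes tested.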
